A study of Mus musculus with 2 samples.

Results

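The collagen chains are the genes whose symbol reads Col, a type number, the letter a and a chain number. There were 44 of them among 43346 mouse gene identifiers, of which 42462 carried a symbol. By type number, 11 were fibrillar chains (types 1, 2, 3, 5, 11, 24 and 27), 8 were basement membrane chains (types 4, 15 and 18), 6 were microfibril chains (type 6) and 19 were other chains. The RNA was the polyadenylated fraction of adipose tissue from a male C57BL/6J mouse aged 10 weeks with no treatment named in the labels. A single biosample was sequenced as library 2, made in 2015, and as library 1, the earlier one. The labels name no fat depot and do not say whether animals were pooled. All differences below lie between these 2 technical libraries, so an SD is a technical spread over n = 2, and a difference of library cannot be told apart from a difference of preparation date.

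Collagens are the main structural proteins of the extracellular matrix. Their alpha chains wind into triple helices, for which glycine must recur as Gly-X-Y along the chain. Fibrillar collagens form the cables of connective tissue septa, type 4 collagen forms the sheet-like network of the basement membrane that wraps each fat cell and vessel, and type 6 collagen forms beaded filaments that are prominent in fat. The remaining types decorate fibrils, build hexagonal networks, anchor epithelia or span the cell membrane.

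The Gly-X-Y repeat is visible in the genes themselves, and the exons below are shown because the level differences described later lie between chains that share this repeat. Each is a complete coding exon of 54 bases with 6 triplets, from the GENCODE M21 annotation of mm10, read on the coding strand. Capitals mark the glycine codon (GGN) that opens each triplet. A further GGN codon inside the last triplet of Col1a1 exon 8 (ggt) is left in lower case.
Col1a1 exon 8 (chr11:94939904-94939957, plus strand): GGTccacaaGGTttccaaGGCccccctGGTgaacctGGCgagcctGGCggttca
Col1a2 exon 8 (chr6:4515481-4515534, plus strand): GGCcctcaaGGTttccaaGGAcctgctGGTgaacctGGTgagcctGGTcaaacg
Col3a1 exon 6 (chr1:45325360-45325413, plus strand): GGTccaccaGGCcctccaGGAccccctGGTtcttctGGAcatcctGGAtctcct
Col5a2 exon 6 (chr1:45434892-45434945, minus strand): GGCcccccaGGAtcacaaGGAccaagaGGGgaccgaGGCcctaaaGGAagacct
Col5a3 exon 15 (chr9:20801068-20801121, minus strand): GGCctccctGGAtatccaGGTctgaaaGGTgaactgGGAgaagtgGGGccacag
Col4a1 exon 7 (chr8:11245211-11245264, minus strand): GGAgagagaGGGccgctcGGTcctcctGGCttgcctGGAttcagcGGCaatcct
Col4a2 exon 17 (chr8:11413979-11414032, plus strand): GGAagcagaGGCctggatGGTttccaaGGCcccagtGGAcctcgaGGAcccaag
Col6a1 exon 9 (chr10:76719623-76719676, minus strand): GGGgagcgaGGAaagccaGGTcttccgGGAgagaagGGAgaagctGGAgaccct

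The partner chains Col1a1 and Col1a2 had 42 of 54 bases in common in exon 8. The classes differed in how far the repeat ran without a break. In the longest coding sequence of each gene, the longest uninterrupted run of GGN-first triplets was 216 to 344 triplets in the 11 fibrillar chains (median 338). It was 30 to 66 in the 8 basement membrane chains, 37 to 87 in the 6 microfibril chains and 23 to 113 in the 19 other chains. Whole coding exons had a length divisible by 9 in 83.9% of 627 fibrillar exons, against 45.2% of 361 basement membrane exons, 54.1% of 207 microfibril exons and 58.2% of 727 exons of other chains. Exons of exactly 54 bases made up 48.6% of the fibrillar exons and 4.43% of the basement membrane exons. The bases differ between the coding part and the part that follows it. The median GC content of the fibrillar coding sequences was 61.3%, and that of the stretches from their stop codons onward was 37.2%. That median counts Col11a2, whose stretch is 3 bases long and so holds the stop codon alone. In the other fibrillar chains the stretch ran from 31.6% GC (Col11a1) to 54.1% (Col5a3).

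Depth was 19256809 expected counts in library 2 and 19954869 in library 1. The mitochondrial chromosome took 4.11% of all counts in library 2, against 19.4% in library 1. It took 8.66% of the TPM in library 2, against 33.6% in library 1, where TPM is a level per length that sums to the same total in each library. The adipose label fits its markers, with 6 of 6 adipocyte genes at 1 TPM or more in both libraries and a summed level of 9853 TPM in library 2, against 5172 TPM in library 1. Markers of the epididymis epithelium were also present (5 of 5, summed at 34904 TPM in library 2, against 28792 TPM in library 1). In 6 lists of fibroblast, endothelium, smooth muscle, mesothelium, epithelium and macrophage markers, 26 of 27 genes reached 1 TPM in both libraries. The summed level per list ran between 115 and 720 TPM in library 2 and between 51.8 and 444 TPM in library 1, and the part of these cells in the collagen levels was not tested. At 1 TPM or more in both libraries were 2 of 4 Schwann cell markers, 1 of 5 cartilage markers (Matn1 and Matn3 at 0) and 0 of 4 bone markers (Bglap and Ibsp at 0). In bulk RNA, fewer cells of a type and less RNA per cell cannot be told apart.

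Collagen transcripts summed to 2005 TPM in library 2, against 848 TPM in library 1, which was 0.201% of all TPM in library 2, against 0.0848% in library 1. Their counts were 131602 in library 2 and 56984 in library 1. Rescaled to the TPM outside the mitochondrial chromosome, the sums were 2195 in library 2 and 1278 in library 1. With the nuclear copies of mitochondrial genes on chromosome 1 also left out, they were 2353 in library 2 and 1725 in library 1, so the ratio of the sums was 1.36 on that scale, against 2.36 as deposited. Of the 44 chains, 29 stood at 1 TPM or more in both libraries, 34 did so in library 2 and 29 in library 1. The 5 chains above that limit in library 2 alone were Col22a1, Col7a1, Col27a1, Col17a1 and Col20a1, and no chain was above it in library 1 alone. Fibrillar chains supplied 47.4% of the collagen TPM in library 2 and 61.8% in library 1. Basement membrane chains supplied 22.9% in library 2 and 13.3% in library 1, microfibril chains 22.9% and 18.5%, and the other chains 6.81% and 6.39%, each in libraries 2 and 1.

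The order of levels was headed by the same pair in both libraries. Col3a1 and Col1a2 were the highest chains in each. Below them the order differed: Col6a1, Col4a1, Col1a1, Col6a2 and Col4a2 followed in library 2, whereas Col6a5, Col15a1, Col6a3, Col6a1 and Col1a1 followed in library 1. In library 1 short forms held 63.0% of the TPM of Col6a5, 93.1% of Col15a1 and 81.3% of Col6a3. Col3a1 ranked 288th among all genes in library 2 and 181st in library 1, and Col4a2 ranked 1217th in library 2 and 8369th in library 1. Col3a1 averaged 389 ± 59.1 TPM and Col1a2 176 ± 83.1 TPM (SD, n = 2). Col6a1 averaged 102 ± 98.8 TPM, Col4a1 94.2 ± 100.2 TPM and Col1a1 90.8 ± 89.1 TPM, where all were higher in library 2. Within each library Col6a1 was above both others, while Col4a1 was above Col1a1 in library 2 and below it in library 1.

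**Figure D1:**
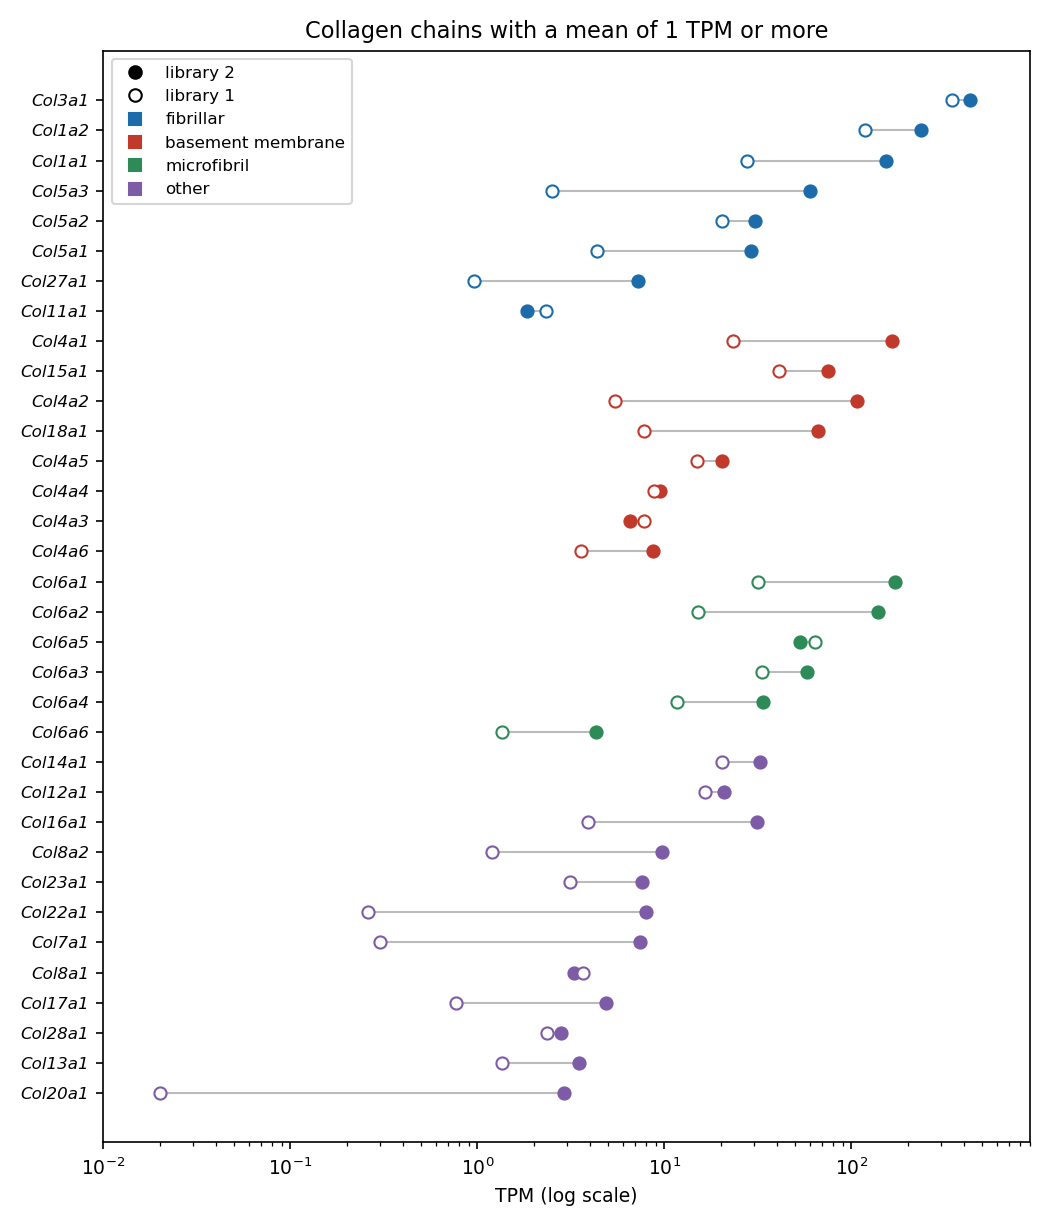
Level of each collagen chain with a mean of 1 TPM or more, in TPM on a log axis, with filled points for library 2 and open points for library 1, coloured by class. Col3a1 and Col1a2 lead in both libraries, while Col4a2, Col5a3, Col7a1 and Col20a1 show wide gaps between the libraries.

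Differences between the libraries were tested on counts, scaled with TMM (trimmed mean of M values), by a two-sided exact binomial test per gene with Benjamini-Hochberg adjustment over 18275 genes. Chains were called where the adjusted p was under 0.05 and the difference reached 2-fold. Of the 41 chains with at least 10 counts, 23 were higher in library 2, 1 was lower and 17 were not called. Over all 18275 genes, 30.1% were called higher and 18.4% lower. The median log2 ratio of library 2 over library 1 was 1.30 over the 41 chains and 0.02 over all tested genes. The test covers counting error between these 2 libraries only and has no replicate check. Transcript GC content moved with the ratio: with the GC trend of all genes removed, the collagen median was -0.25, with 2 chains higher and 6 lower (background 9.52% higher and 8.18% lower). Of the 34 chains with a mean of 1 TPM or more, 19 then had the opposite sign, among them Col1a1, Col4a1, Col4a2, Col5a3, Col6a1 and Col6a2, so every direction given below is that of the ratio with the trend left in.

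Fibrillar chains ranged from a 16.1-fold higher chain to a ratio of 0.539. Of 11 tested, 6 were higher in library 2, none was lower, and the median log2 ratio was 1.64. Col3a1, the homotrimer of elastic tissues and vessel walls, stood at 431 TPM in library 2, against 347 TPM in library 1. Its scaled counts were 0.989-fold those of library 1 (log2 -0.02, 95% interval -0.04 to 0.01, adjusted p = 0.296 by the exact binomial test). Col1a2, the minor chain of type 1 collagen, stood at 235 TPM in library 2, against 118 TPM in library 1, a log2 ratio of scaled counts of 0.33 (95% interval 0.29 to 0.37) that fell short of 2-fold. Its partner Col1a1 stood at 154 TPM in library 2, against 27.7 TPM in library 1, and was 3.34-fold higher by scaled counts (log2 1.74, 95% interval 1.68 to 1.80).

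A TPM ratio and a ratio of scaled counts are different quantities. For Col5a1, whose mean transcript length was the same in both libraries, the TPM of library 2 was 6.74 times that of library 1 and its scaled count was 4.03 times. Folds below are those of scaled counts, and TPM gives levels.

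The type 5 chains, which start fibrils and set their width, did not move alike. Col5a3 stood at 60.45 TPM in library 2, against 2.52 TPM in library 1, a 16.1-fold difference (log2 4.01, 95% interval 3.82 to 4.21). Col5a1 stood at 29.2 TPM in library 2, against 4.34 TPM in library 1. Col5a2 stood at 30.4 TPM in library 2, against 20.3 TPM in library 1, with a log2 ratio of scaled counts of -0.11 (95% interval -0.19 to -0.02) and no call. In library 2 the level of Col5a3 was thus the highest of the 3 type 5 chains, and in library 1 it was the lowest.

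The cartilage-type and minor fibrillar chains were low in both libraries. Col27a1 stood at 7.24 TPM in library 2, against 0.96 TPM in library 1 and was called 3.12-fold higher. Col11a1 stood at 1.85 TPM in library 2, against 2.32 TPM in library 1, 0.539-fold by scaled counts and not called. Col11a2 (0.84 TPM in library 2, 0.07 TPM in library 1), Col24a1 (0.41 and 0.74 TPM in libraries 2 and 1) and Col2a1 (0.43 and 0.01 TPM) stayed under 1 TPM. Col2a1, the main collagen of cartilage, rested on 27 counts in library 2 and 1 in library 1, so its log2 ratio of 3.81 has a 95% interval of 1.77 to 9.72.

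Basement membrane chains ranged from the only lower call to a 16.6-fold higher chain. Of 8 tested, 4 were higher in library 2, 1 was lower and 3 were not called, with a median log2 ratio of 0.92. Col4a1 and Col4a2 form the common heterotrimer of basement membranes. Col4a1 stood at 165 TPM in library 2, against 23.3 TPM in library 1, 4.22-fold higher (log2 2.08, 95% interval 2.02 to 2.14). Col4a2 stood at 106.65 TPM in library 2, against 5.46 TPM in library 1, 11.6-fold higher (log2 3.54, 95% interval 3.42 to 3.66). Both were high in library 2, but by unequal factors.

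These genes lie head to head on chromosome 8, with Col4a1 on the minus strand at 11198423 to 11312826 and Col4a2 on the plus strand at 11312805 to 11449287 of mm10. The annotated genes overlap by 22 bases, and their RefSeq start sites on GRCm38.p6 lie 21 bases apart. Reads in that overlap cannot be assigned without strand, and the use of strand in counting is not given in the sources used here. Windows of 300 bases around the starts were matched for 35 of the 44 chains (38 windows). The letters GGGCGG, searched on both strands, occurred in 60.5% of the collagen windows and in 35.7% of all 32851 windows, among them the windows of Col4a1 and Col4a2. The Col4a1 and Col4a2 windows share 78 bases, and a GGGCGG in that stretch counts in both. The collagen windows ran from 37.7% GC (Col3a1) to 75% GC (Col5a1), and their GC content was not compared with that of all windows. CCAAT occurred in 34.2% of the collagen windows and 37.4% of all windows.

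The multiplexins Col15a1 and Col18a1 sit at the outer face of basement membranes, and Col18a1 is the source of endostatin, an inhibitor of vessel growth. Col15a1 stood at 75.3 TPM in library 2, against 41.2 TPM in library 1, 2.47-fold higher by scaled counts. Col18a1 stood at 66.3 TPM in library 2, against 7.74 TPM in library 1, 16.6-fold higher by scaled counts (log2 4.05, 95% interval 3.85 to 4.28). Col18a1 overlaps Slc19a1 on the other strand, which stood at 16.9 TPM in library 2, against 0.77 TPM in library 1.

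The minor type 4 chains, which build the specialised network of kidney and smooth muscle membranes, differed less between libraries. Col4a5 stood at 20.5 TPM in library 2, against 14.9 TPM in library 1, and Col4a6 at 8.65 TPM in library 2, against 3.56 TPM in library 1. Col4a4 stood at 9.45 TPM in library 2, against 8.79 TPM in library 1, with a log2 ratio of scaled counts of -0.65. None of these was called. Col4a3 stood at 6.51 TPM in library 2, against 7.75 TPM in library 1, and was the only chain of 41 called lower (0.495-fold, log2 -1.02, 95% interval -1.15 to -0.88). That call lies at the 2-fold limit. It was not made with total counts as the scale, with genes below 10 counts kept, or with the GC trend over all annotated transcripts removed (log2 -0.88).

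All microfibril chains but Col6a6 stood above 10 TPM in both libraries. Of 6 tested, 4 were higher in library 2 and 2 were not called, with a median log2 ratio of 1.10. Type 6 collagen is assembled from Col6a1, Col6a2 and a long chain, Col6a3 or its relatives Col6a4, Col6a5 and Col6a6. Col6a1 stood at 171 TPM in library 2, against 31.7 TPM in library 1, 3.24-fold higher (log2 1.70, 95% interval 1.63 to 1.77). Col6a2 stood at 139 TPM in library 2, against 15.1 TPM in library 1, 5.28-fold higher (log2 2.40, 95% interval 2.31 to 2.50).

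The long chains differed less between libraries. Col6a3, whose end is cleaved off as endotrophin, stood at 57.7 TPM in library 2, against 33.4 TPM in library 1, 2.19-fold higher by scaled counts. Col6a4 stood at 33.7 TPM in library 2, against 11.6 TPM in library 1, 2.10-fold higher. Col6a5 stood at 53.0 TPM in library 2, against 63.9 TPM in library 1 with no call, so it was the highest type 6 chain in library 1 and the fourth in library 2. That first place rests on Col6a5-202, a retained intron form of 779 bases at 22.5 TPM in library 2, against 40.25 TPM in library 1. The coding Col6a5-203 stood at 30.4 TPM in library 2, against 23.7 TPM in library 1, and there it lay below Col6a1-201 at 31.6 TPM. Col6a6 stood at 4.31 TPM in library 2, against 1.36 TPM in library 1, again with no call. The counts of Col6a5 and Col6a6 were not whole (3895.46 and 495.54 in library 2, 4092.95 and 200.05 in library 1) but summed to whole numbers, 4391 in library 2 and 4293 in library 1. Reads were thus divided between the 2 genes, which neighbour each other on chromosome 9, and their separate values are uncertain.

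Among the 19 other chains, 9 of 16 tested were higher in library 2, none was lower, and the median log2 ratio was 1.59. The FACIT chains, which attach to the surface of fibrils, were the most abundant of them. Col14a1 stood at 32.6 TPM in library 2, against 20.2 TPM in library 1, and Col12a1 at 20.8 TPM in library 2, against 16.6 TPM in library 1. Neither was called. Col16a1 stood at 31.3 TPM in library 2, against 3.89 TPM in library 1, 18.3-fold higher (log2 4.19, 95% interval 3.80 to 4.64). By TPM Col16a1 was thus level with Col14a1 in library 2 and lay well under it in library 1. Both levels include short forms. Col16a1-207, a processed transcript of 833 bases, held 39.1% of the TPM of Col16a1 in library 2 and 61.9% in library 1. Col14a1-204, of 2085 bases, held 55.2% of Col14a1 in library 2 and 41.7% in library 1.

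FACIT chains Col22a1 and Col20a1 were listed mainly in library 2. Col22a1, known from the muscle-tendon junction, stood at 8.00 TPM in library 2, against 0.26 TPM in library 1, on 81 and 6 counts in libraries 2 and 1. Col20a1 stood at 2.89 TPM in library 2, against 0.02 TPM in library 1, on 87 counts and 1 count, so its log2 ratio of 5.48 has a 95% interval of 3.54 to 11.38. Col20a1 overlaps BX649560.1 on the same strand (6.59 TPM in library 2, 2.51 TPM in library 1). These were the only chains still called higher after the GC trend over all annotated transcripts was removed, at log2 2.34 for Col22a1 and 2.79 for Col20a1. The most counted transcript of Col22a1 was not matched, so the GC content used for it is that of its other transcripts. Its call after removal is therefore uncertain.

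The network chains Col8a1 and Col8a2, known from vessel walls and the cornea, went separate ways. Col8a2 stood at 9.73 TPM in library 2, against 1.2 TPM in library 1, 4.30-fold higher. Col8a1 stood at 3.29 TPM in library 2, against 3.68 TPM in library 1, 0.536-fold by scaled counts and not called. Col7a1, the chain of the anchoring fibrils under epithelia, stood at 7.41 TPM in library 2, against 0.30 TPM in library 1, 29.2-fold higher (log2 4.87, 95% interval 4.2 to 5.73).

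Of the transmembrane chains, Col17a1 of the hemidesmosome stood at 4.85 TPM in library 2, against 0.77 TPM in library 1 and was 3.03-fold higher. Col13a1 stood at 3.49 TPM in library 2, against 1.35 TPM in library 1, 3.57-fold higher by scaled counts. Col23a1 stood at 7.57 TPM in library 2, against 3.13 TPM in library 1 with no call. Col28a1, known in the mouse from peripheral nerve, stood at 2.79 TPM in library 2, against 2.37 TPM in library 1, also with no call. Its log2 ratio of scaled counts was -0.51. In all, 10 chains stayed under 1 TPM in both libraries, among them Col9a1, Col9a2 and Col9a3 of cartilage, Col10a1 of the growth plate and the transmembrane Col25a1. Col9a2 had 12 counts in library 2 and 0 in library 1, at least 3.06-fold higher against a floor of 3 counts in library 1. Col10a1, Col19a1 and Col26a1 had too few counts to be tested.

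The 2-fold calls followed GC content. Of 8 chains whose most counted transcript had under 50% GC, none was called and the median log2 ratio was -0.48. Of all tested genes in that band 34.7% were called lower and 1.66% higher. Of 10 chains at 50 to 55%, 2 were higher and 1 lower, at a median of -0.06, where 36.4% of all genes were called higher. Of 14 chains at 55 to 60%, 12 were higher, at a median of 1.72, and all 8 chains at 60% or more were higher, at a median of 4.03. Of all genes 86.9% were called higher at 55 to 60% and 93.3% at 60% or more, so the collagen counts there are near the background. The medians of all tested genes in the same bands were -0.79, 0.72, 2.44 and 4.08. Chains called higher had a GC content of 53.95 to 62.9%, and the chains that were not lay between 45.9 and 55.7%. Across the 40 chains with a value, Spearman's rho of ratio and GC content was 0.92, and across 18100 genes it was 0.87, a description over genes that share both libraries. Col22a1 had no value, since its most counted transcript was not matched.

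**Figure D2:**
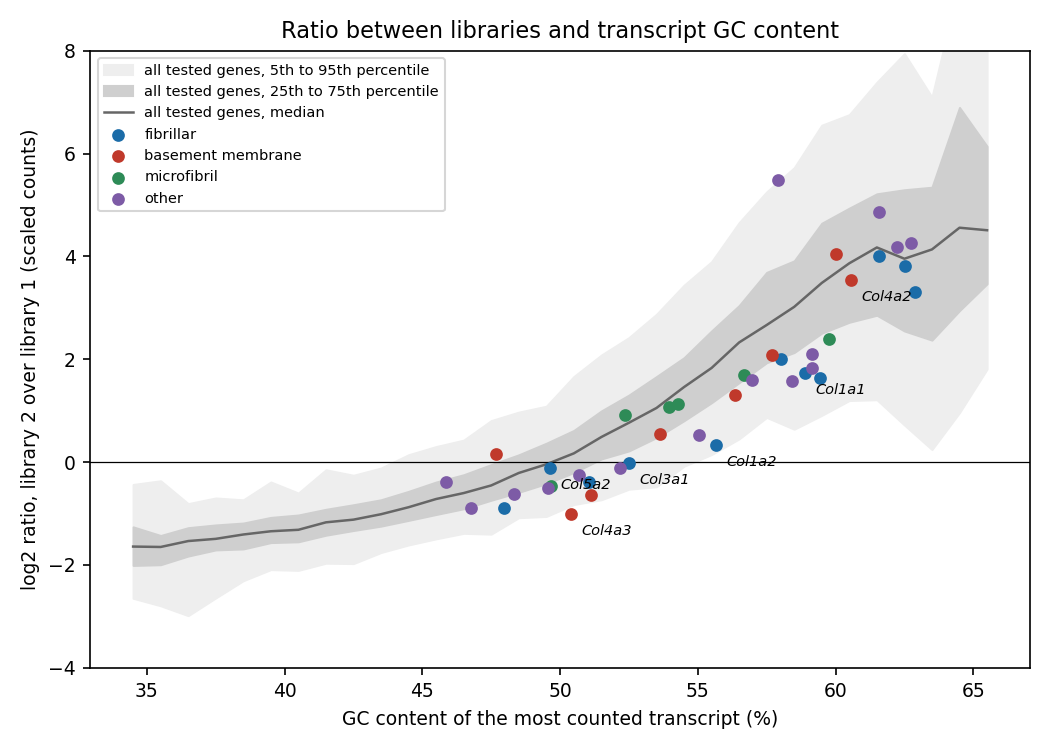
Log2 ratio of scaled counts, library 2 over library 1, against the GC content of the most counted transcript, for 40 collagen chains coloured by class. Grey bands and the line give percentiles and the median of all tested genes in steps of 1% GC, and of the 24 chains at 50 to 60% GC 22 lie below the trend of all genes. By construction the median distance of all tested genes from that trend is 0.

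Below the trend of all genes lay 33 of 40 chains, and 7 lay above it. The trend is a median in bins, so by construction the median distance of all tested genes from it was 0. With the trend of the most counted transcript removed, the median of the chains was -0.56, with 1 higher and 9 lower (background 8.57% higher and 7.49% lower). The fibrillar median was then -0.67 with 3 lower, the basement membrane median -0.57 with 2 lower, and the microfibril median -0.33 with 1 lower. Col1a1 and Col1a2 were both among the lower calls, at -1.62 and -1.61. Col4a3, Col4a4, Col6a2, Col8a2, Col13a1, Col23a1 and Col27a1 were the others, between -1.10 for Col4a4 and -1.72 for Col27a1. With the trend over all annotated transcripts removed instead, Col1a2 stood at 0.87, Col4a3 at -0.88, Col6a2 at -0.05 and Col13a1 at -0.96, none of them called. Col1a1, Col4a4, Col8a2, Col23a1 and Col27a1 were lower under both trends. The direction of the collagen medians therefore depends on whether the GC trend is removed.

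Partner chains of the same molecule were compared within each library, where depth and scaling cancel. Col1a1 to Col1a2, which join as a heterotrimer, stood in a TPM ratio of 0.654 in library 2 and 0.236 in library 1. Col1a1 took 42.9% of the counts of the pair in library 2 (exact Clopper-Pearson 95% interval 42.3 to 43.5%) and 22.03% in library 1 (21.3 to 22.8%). The ratio of Col4a1 to Col4a2 was 1.55 in library 2 and 4.26 in library 1, and Col4a1 took 61.4% of the pair's counts in library 2 (60.7 to 62.0%) and 81.4% in library 1 (80.0 to 82.7%). These intervals cover counting error only and do not overlap between libraries.

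Other pairs moved too. Col5a1 to Col5a2 stood at 0.962 in library 2 and 0.213 in library 1, and Col6a1 to Col6a2 at 1.23 in library 2 and 2.10 in library 1. Col6a1 to Col6a3 stood at 2.97 in library 2 and 0.951 in library 1. The short retained intron form Col6a3-206 enters this TPM ratio, with 52.6% (library 2) and 81.3% (library 1) of the gene's TPM. By counts Col6a1 was the larger chain of this pair in both libraries, with a share of 73.3% (library 2) and 65.0% (library 1). Col8a1 to Col8a2 was 0.338 in library 2 and 3.07 in library 1, so that the more abundant chain of type 8 differed between libraries. Col4a3 to Col4a4 stood at 0.689 in library 2 and 0.882 in library 1, and Col4a5 to Col4a6 at 2.37 in library 2 and 4.19 in library 1. In each of the 10 pairs examined, types 9 and 11 included, the chain with the higher GC content had the higher log2 ratio. Gene pairs outside the collagens were not counted, and over 18100 genes Spearman's rho of ratio and GC content was 0.87. Removal of the trend of the most counted transcript made the difference in log2 ratio smaller in 8 of the 10 pairs and turned its sign in 7. Between Col1a1 and Col1a2 the difference was -0.01 after removal and 1.41 before, and between Col4a1 and Col4a2 it was -0.34 after and -1.46 before. It was -0.91 after and 2.12 before between Col5a1 and Col5a2, and 0.89 after and -3.00 before between Col8a1 and Col8a2. For type 6 it was 0.57 after and -0.70 before between Col6a1 and Col6a2, and -0.62 after and 0.56 before between Col6a1 and Col6a3. Between Col4a5 and Col4a6 it was larger after removal, at 1.12, than the -0.39 before. With the trend over all annotated transcripts removed instead, Col1a1 stood at -1.06 and Col1a2 at 0.87, so this pair lay apart. Col6a1 stood at -0.99 and Col6a2 at -0.05, and the sign of their difference did not turn. Col4a5 (-0.18) and Col4a6 (-0.48) lay closer together than before removal. For Col4a1 with Col4a2, Col5a1 with Col5a2, Col8a1 with Col8a2 and Col6a1 with Col6a3 the sign was the same under both trends.

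**Figure D3:**
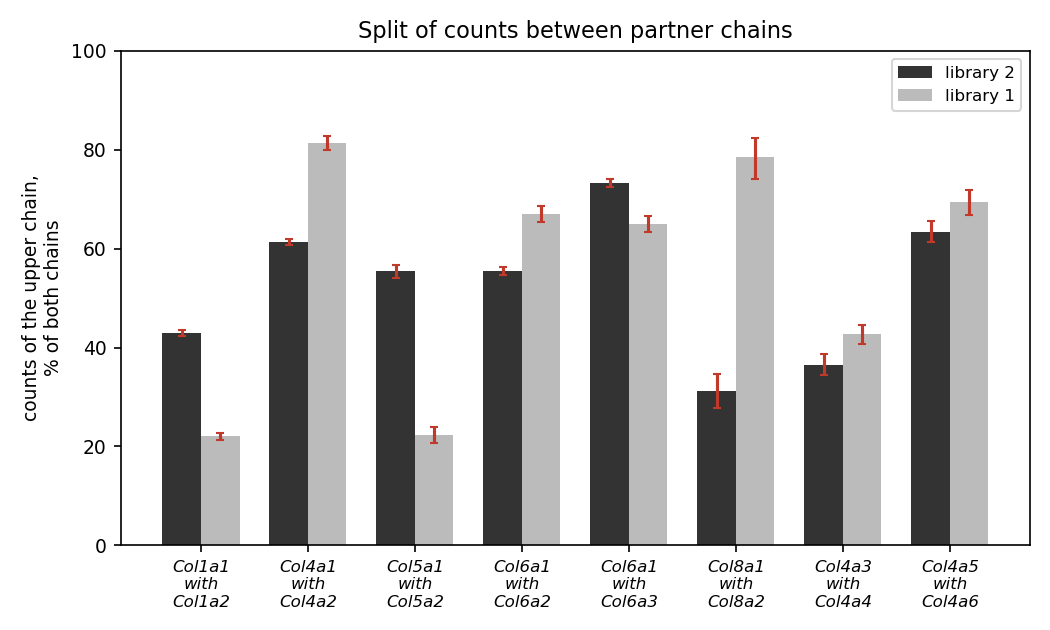
Share of a pair's counts taken by the upper chain of each label, in percent, with dark bars for library 2 and light bars for library 1. Error bars are exact 95% Clopper-Pearson intervals of counting error, and they do not overlap between libraries for Col1a1 with Col1a2 (42.9% in library 2, 22.03% in library 1) or Col8a1 with Col8a2.

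Transcripts of the same gene differed between libraries as well. Of 19 chains with a mean of 10 TPM or more, 12 had at least 2 transcripts with 10% or more of the gene's TPM in either library. The transcript that gained most share in library 2 had a higher GC content than the one that lost most in 12 of 12 chains, and was the longer one in 9 of 12. The same was not counted over the transcripts of all genes, so these counts have no background beside them. Col15a1-202, of 5172 bases, held 63.4% of the TPM of Col15a1 in library 2 and 2.57% in library 1. The shorter Col15a1-203, of 1755 bases, held 26.8% in library 2 and 93.1% in library 1. Full-length and short forms of this gene thus changed places between the libraries.

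Col18a1 showed the same kind of change. Col18a1-202 held 58.2% of the gene's TPM in library 2 and 19.4% in library 1. The 717-base Col18a1-204 was listed at 0% in library 2 and 78.0% in library 1, on 0 counts and 54.7 counts in libraries 2 and 1. For Col4a5, Col4a5-202 held 48.5% in library 2 and 5.66% in library 1. Col6a3-206, a retained intron form of 646 bases, held 52.6% of Col6a3 in library 2 and 81.3% in library 1. The full Col3a1-201 held 78.6% of Col3a1 in library 2 and 56.0% in library 1.

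These shares carry into the gene levels, because TPM divides by the mean transcript length. The mean length of Col18a1 was 4747 bases in library 2 and 1592 in library 1, and its TPM ratio of 8.57 is smaller than its 16.6-fold ratio of scaled counts. The mean length of Col16a1 was 3067 bases in library 2 and 939 in library 1, with a TPM ratio of 8.04 and an 18.3-fold ratio of counts. The TPM of these genes in library 1 rests mainly on short transcripts.

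**Figure D4:**
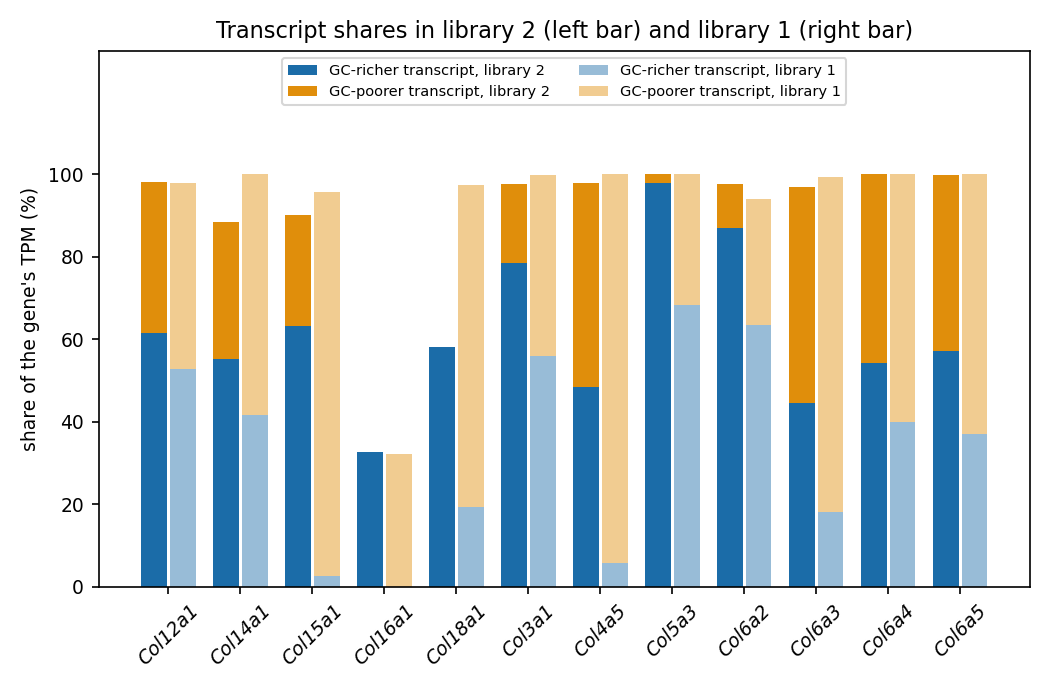
Share of each gene's TPM, in percent, held by the transcript that gained most share in library 2 (blue, the GC-richer of the pair in all 12 chains) and the one that lost most (orange), in library 2 (left bar of each pair) and library 1 (right bar). Col15a1, Col4a5, Col18a1 and Col16a1 show the widest changes. Transcripts of other genes were not counted. For Col16a1 the orange share rests on 4.2 counts of Col16a1-208 in library 1 and 0 in library 2, where the whole gene had 50 counts in library 1.

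Genes that modify, export, cleave, cross-link, organise or bind collagen were counted from lists. Of 78 such genes 74 were tested, of which 30 were higher in library 2, 10 lower and 34 not called (background 30.1% higher and 18.4% lower). Their median log2 ratio was 0.57, and -0.07 after removal of the trend of the most counted transcript, with 9 higher and 5 lower (background 8.57% and 7.49%). Of 14 tested prolyl and lysyl modifiers 6 were higher and 1 lower. Ppib, a prolyl isomerase, stood at 596 TPM in library 2, against 111 TPM in library 1 and was higher (log2 1.69). P4hb, the shared subunit of prolyl 4-hydroxylase, stood at 441 TPM in library 2, against 195 TPM in library 1, and Crtap, of the 3-hydroxylation complex, at 52.8 TPM in library 2, against 41.75 TPM in library 1, both without a call.

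Chaperones and export factors included 3 higher and 1 lower of 9. Serpinh1, the collagen-specific chaperone HSP47, stood at 142 TPM in library 2, against 35.1 TPM in library 1 and was higher (log2 1.28). Hspa5, the general chaperone BiP, stood at 867 TPM in library 2, against 854 TPM in library 1. Mia3, which loads collagen into transport carriers, stood at 188 TPM in library 2, against 163 TPM in library 1, and neither was called. By scaled counts the log2 ratios were below 0, at -0.92 for Hspa5 and -0.73 for Mia3.

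Of 7 tested genes for propeptide removal 4 were higher and none lower. The cleavage enhancer Pcolce stood at 65.1 TPM in library 2, against 6.97 TPM in library 1 (log2 2.66), the N-propeptidase Adamts2 at 23.9 TPM in library 2, against 6.23 TPM in library 1 (log2 1.2), and the C-propeptidase Bmp1 at 25.2 TPM in library 2, against 1.85 TPM in library 1 (log2 3.02). All were called higher.

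Cross-linking enzymes included 3 higher and 1 lower of 6. Pxdn, which cross-links type 4 collagen, stood at 54.5 TPM in library 2, against 20.4 TPM in library 1 with no call. Lox, the founding lysyl oxidase, stood at 16.6 TPM in library 2, against 20.1 TPM in library 1 and was lower (log2 -1.08). Loxl2 stood at 18.4 TPM in library 2, against 11.4 TPM in library 1 with no call (log2 ratio of scaled counts -0.04). Its count in library 2 was not whole, so it shares reads.

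Fibril organisers included 3 higher and 2 lower of 11. Decorin (Dcn) was the highest of them, at 852 TPM in library 2, against 982 TPM in library 1, and biglycan (Bgn) stood at 229 TPM in library 2, against 176 TPM in library 1, both without a call. By scaled counts both log2 ratios were below 0, at -0.94 for Dcn and -0.20 for Bgn. Osteoglycin (Ogn) stood at 97.6 TPM in library 2, against 229 TPM in library 1 and was lower (log2 -1.97). Its most counted transcript has 36.3% GC, below every collagen chain.

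Basement membrane partners included 7 higher and none lower of 16. Sparc, a collagen-binding matrix protein, stood at 1226 TPM in library 2, against 553 TPM in library 1, and nidogen 1 (Nid1) at 131 TPM in library 2, against 116 TPM in library 1, both without a call. By scaled counts the log2 ratio was 0.47 for Sparc and -0.57 for Nid1. The laminin chain Lamb2 stood at 102 TPM in library 2, against 12.7 TPM in library 1 and was higher (log2 4.46). Receptors included 4 higher and 5 lower of 11. The integrin chain Itgb1 stood at 158 TPM in library 2, against 218 TPM in library 1 and was lower (log2 -1.2). The collagen-binding kinase Ddr2 stood at 25.2 TPM in library 2, against 28.9 TPM in library 1 and was lower (log2 -1.06). Its relative Ddr1 stood at 34.2 TPM in library 2, against 1.90 TPM in library 1 and was higher (log2 3.35).

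**Figure D5:**
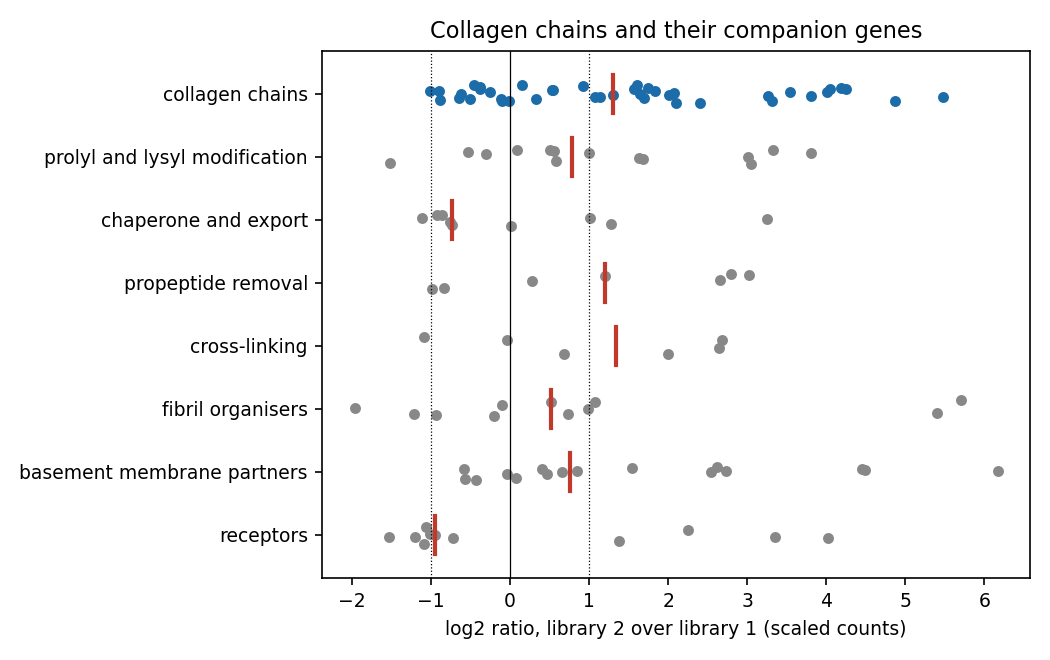
Log2 ratio of scaled counts, library 2 over library 1, for the 41 tested collagen chains (blue) and for 7 lists of companion genes (grey), with 1 point per gene and the median of each row in red. Dotted lines mark 2-fold, and the receptors and the chaperones have medians below 0 (-0.95 and -0.73).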

How the data were processed

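Polyadenylated RNA was measured in 2 technical libraries of 1 biosample. Per gene and per transcript, the authors deposited expected counts, which need not be whole, with TPM, FPKM and, per transcript, the percent of the gene's TPM, per the file headers. The assembly was mm10 and the annotation M4, per the text deposited beside the files. Aligner and quantifier: not given in the sources used here. Signal tracks were not used here. Symbols, coordinates and GC content came from GENCODE M21 of the same assembly (198 of 224 of its collagen transcripts matched the files), and start sites from RefSeq.

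Rounding made the expected counts whole. For each gene with 10 or more counts in all, the library 2 count was tested with an exact binomial test (two-sided). Library sizes were edgeR's TMM effective sizes, p-values were adjusted by Benjamini-Hochberg, and called genes had an adjusted p under 0.05 and a 2-fold difference. The design leaves no residual degrees of freedom, so p-values measure counting error, and no molecular identifiers are named, so reads may repeat molecules. Log2 ratios had 0.5 added to each count. The GC trend was the median log2 ratio in 40 bins of GC content. Deposited posterior mean counts, TPM and FPKM served as alternatives, as did each library alone, total counts, DESeq2 size factors, other filters, and edgeR's exact test at dispersion 0.01. Removal of the trend of the most counted transcript was chosen after seeing the data. Entries without a mouse identifier (2 counts in library 2, none in library 1) were not used. Glycine repeats, planned on proteins, were counted in coding sequences. The tests were tested on simulated data. Every chain with a mean of 1 TPM or more is named, with the 3 highest members of each companion list. Members and lists were chosen with earlier results of these data known. Software was Python 3.11.15 (matplotlib 3.10.9, pandas 2.3.3, scipy 1.17.1, numpy 2.4.6) and R 4.3.3 (DESeq2 1.42.0, edgeR 4.0.16).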

Additional observations from a re-analysis of the deposited data

How the results depend on the processing

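Of 34 named chains, all kept direction and call with DESeq2 size factors, posterior mean counts, a pseudocount of 1 and the edgeR exact test, by which 22 of all 41 chains were higher and 1 lower. With total counts, which shift every ratio by 0.44, the medians were 1.74 (all chains), 2.08 (fibrillar) and 1.36 (basement membrane), 24 chains were higher and 0 lower, and 3 uncalled chains turned sign (0.42 for Col3a1, 0.33 for Col5a2, 0.18 for Col14a1). With no filter 0 chains were lower and the median was 1.14. With at least 100 counts the medians were 1.07 over 32 chains and 0.95 over 8 fibrillar chains. Without the 2-fold limit 28 were higher and 9 lower. For the settings up to here the share of all genes called was not counted, so their counts of chains have no background beside them. With the GC trend removed, 2 chains were higher and 6 lower, and the medians were -0.25, -0.20 (fibrillar) and -0.29 (basement membrane). Of 34 chains 19 turned sign: 0.53 for Col3a1, -1.06 for Col1a1, -0.20 for Col5a3, 0.44 for Col5a2, -0.79 for Col5a1, -1.97 for Col27a1, -0.37 for Col4a1, -0.20 for Col15a1, -0.075 for Col4a2, -0.18 for Col4a5, -0.48 for Col4a6, -0.99 for Col6a1, -0.049 for Col6a2, -0.25 for Col6a3, -0.020 for Col16a1, -1.23 for Col8a2, -1.12 for Col23a1, -1.09 for Col17a1, -0.96 for Col13a1. With the trend of the most counted transcript removed, 1 was higher and 9 lower, the medians were -0.56, -0.67 and -0.57 in the same order, and 18 turned sign: -1.61 for Col1a2, -1.62 for Col1a1, -0.20 for Col5a3, -0.97 for Col5a1, -1.72 for Col27a1, -0.56 for Col4a1, -0.93 for Col15a1, -0.22 for Col4a2, -0.58 for Col4a6, -0.79 for Col6a1, -1.36 for Col6a2, -0.18 for Col6a3, -0.24 for Col6a4, -0.014 for Col16a1, -1.25 for Col8a2, -1.22 for Col23a1, -0.89 for Col17a1, -1.52 for Col13a1. With the trend over all annotated transcripts removed, Col18a1 (0.44), Col7a1 (0.65), Col6a4 (0.048) and Col4a3 (-0.88) also lost their calls, as Col18a1 and Col7a1 did under the second, and Col4a4 gained one under each (-1.11 and -1.10). The cause of these changes was not tested.

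The number of chains at 1 TPM or more in both libraries was 31 at 0.5 TPM, 25 at 2 TPM, 29 by FPKM and 34 by posterior mean TPM. By single library it ranged from 29 to 34, the summed TPM from 848 to 2005, the Col1a1 to Col1a2 ratio from 0.236 to 0.654 and the Col4a1 to Col4a2 ratio from 1.55 to 4.26. Averaged over both libraries, the summed TPM was 1427, and 2039 when rescaled without 43 mitochondrial genes and their copies on chromosome 1 (2353 in library 2, 1725 in library 1). No paired analysis was possible because the libraries form a single group. With 3 counts as the floor, a 1 kb transcript of average yield is not detectable below 0.224 TPM in library 2 and 0.175 TPM in library 1.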
